A study of Mus musculus with 8 samples.

Results

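The heat shock and DnaJ chaperone genes were taken as every gene whose symbol in either m6A peak list starts with Hsp followed by a letter from a to e, an h or a digit, or starts with Dnaj. The rule found 54 genes of the 12413 genes with a peak in at least 1 of the lists, and all their peaks, 115 in the PTC list and 139 in the control list, were used. N6-methyladenosine (m6A), a methylated adenosine inside RNA, was mapped by immunoprecipitation and sequencing in mouse primary T cells treated with PTC for 24 h, an agent whose full name and action the labels leave out, and in control T cells. The 8 samples form 4 groups of 2: PTC immunoprecipitate, PTC input, control immunoprecipitate and control input. All cells were cultured in medium with serum, and neither strain, age nor genotype is stated in the labels used here. The series title names the Polycomb protein BMI1 and immunotherapy of hepatocellular carcinoma.

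The tables hold 1 peak list per condition and no value per sample, so no difference between the conditions has a replicate check and no test was possible. The lists are read as a description: in which transcripts, and where in them, the authors called peaks in each condition. Each peak has the authors' fold enrichment, a linear ratio, and a false discovery rate (FDR), given here as −log10 FDR. These values rank peaks within a list and are not read as a change between lists, and a strong or weak peak below is one of high or low −log10 FDR in its list. All 12 T cell marker genes looked up, such as Cd3e, Lck and Zap70, had peaks in both lists, as did 5 of 6 B cell markers and 4 of 6 myeloid markers, and 2 of 4 erythroid and platelet markers, Hbb-bt and Pf4, had a peak in the PTC list only. No row was found for the 4 hepatocyte markers. The part of other cells in the chaperone peaks was not tested.

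HSP70 proteins bind unfolded stretches of other proteins in a cycle driven by ATP. DnaJ proteins, also called J proteins or HSP40s, deliver clients to HSP70 and start the hydrolysis of its ATP, and HSP110 proteins and other exchange factors release the ADP afterwards. HSP90 takes over many kinases and receptors at a late stage of folding, among them the T cell kinase Lck, while HSP60 works inside mitochondria and BiP and GRP94 inside the endoplasmic reticulum (ER). In mRNA, m6A is known to lie mostly in the DRACH consensus and to gather around stop codons, and in mouse embryonic fibroblasts heat stress is known to add m6A to the 5′ UTR of Hspa1a mRNA.

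In the consensus DRACH the letter D stands for any base but C, R for a purine and H for any base but G, and GGACT is a common form of it. In some chaperone transcripts such a motif is written by the end of the reading frame itself: the last bases of the final sense codons and the T of the stop codon together spell it. This set was looked up after the peaks around stop codons had been seen, and it is shown as the sequence at the point where many m6A peaks lie. The sequences are GENCODE M21 transcripts on GRCm38, read along the transcript from the fourth codon before the stop, and capitals mark the motif, whose last letter is the first base of the stop codon.
Hsph1, chr5:149617498-149617521, minus strand: atggacctGGACTaggctctgtgc
Hspa4l, chr3:40789375-40789398, plus strand: atggaagtGGACTaagtgtcatgt
Hspa2, chr12:76406421-76406444, plus strand: gaggaagtGGACTaggcttgcgct
Dnajc16, chr4:141763510-141763533, minus strand: cctgagctGGACTgagcgaggcct
Hsp90aa1, chr12:110691531-110691554, minus strand: gaagaagtAGACTaagtcaccaga
Dnajc15, chr14:77826388-77826411, minus strand: agcaaagcTAACTgatgctaaagg
The stop codons of Hsph1, Hspa4l, Dnajc16 and Dnajc15 were inside a peak in the PTC list and in the control list, and those of Hspa2 and Hsp90aa1 were inside no peak. That is 4 of 6 in peaks of both lists, beside 27 of all 54 chaperone genes and 42.8% of listed protein-coding genes, and nothing is read from so small a set. A GGACT across the stop codon boundary occurred in 4 of the 54 chaperone genes, which is 7.41% (exact Clopper-Pearson 95% interval 2.06 to 17.9%), against 1.41% of 9992 listed protein-coding genes. Any DRACH across it occurred in 6 of 54, 11.1% (4.19 to 22.6%), against 5.66% of the listed genes. These intervals count related genes, such as the HSP110 genes Hsph1 and Hspa4l, as separate draws. The set was also looked up after the peaks were seen, so no excess is read from these shares. A motif match describes the sequence and does not show which adenosine is methylated.

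A second set comes from the strongest peak of each list in the HSP70, HSP110, HSP90 and DnaJ class A and B genes and Hspbp1, and shows the GGACT sites that lay in the strongest PTC peak and in the strongest control peak alike. Of the 29 listed genes of these groups 28 were examined, all but Hspa9. In 17 of them a strongest peak held a GGACT, with 26 sites in all and 17 in the strongest peaks of both lists. The strongest Hspa9 peak of each list held 2 GGACT, which these counts leave out. A selection of the sites in both is printed with 10 bases to each side, GGACT in capitals, GRCm38. Left out here are the coding sites of Hsph1, Dnaja1, Dnaja2 and Dnajb5, and 3′ UTR sites of Dnajb1, Dnajb6 and Dnajb12.
Hspa5, 3′ UTR, chr2:34776142-34776166, plus strand: tgtaaatactGGACTcaggaacttt
Hspa13, 3′ UTR, chr16:75757389-75757413, minus strand: tagctcttaaGGACTtgaagaactg
Dnaja1, 3′ UTR, chr4:40732985-40733009, plus strand: aatgtgggaaGGACTgtaatcataa
Dnaja2, 3′ UTR, chr8:85539120-85539144, minus strand: aagtccagatGGACTgatggacatc
Dnaja3, 3′ UTR, chr16:4706836-4706860, plus strand: gaaaacacttGGACTcttcttgcag
Dnajb1, 3′ UTR, chr8:83610827-83610851, plus strand: cactcctcaaGGACTgagccagggg
Dnajb9, coding sequence, chr12:44207001-44207025, minus strand: aagcactgcaGGACTgtcactcaac
Dnajb11, 3′ UTR, chr16:22871740-22871764, plus strand: gaagagaactGGACTttgaaagagg
The adenosine of the site lay 44 nt past the last coding base in Hspa5, 23 nt in Dnajb1, 20 nt in Dnajb11 and 54 nt in Dnaja1. In Dnaja2 the distance was 87 nt, in Dnaja3 297 nt and in Hspa13 383 nt. The Hsp90ab1 peaks, among the 2 strongest of the family, held no GGACT in the 1767 nt that lay in the principal transcript. The rest of these peaks was not searched.

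Of 74 annotated mouse protein-coding genes that the name rule matches, the 54 with a peak are 73.0%, against 45.6% of all annotated protein-coding genes. The median transcript of the 54 was 2981.5 nt, against 1043 nt for the 20 with no row in these lists, and for the 20 a missing mark cannot be told apart from low expression. The 20 included Hspe1 (the HSP10 lid of mitochondrial HSP60), Hspa12a and Hspa12b. They also included 7 of 8 genes grouped as small heat shock genes by their names: Hspb1, Hspb2, Hspb3, Hspb7, Hspb8, Hspb9 and Hspb11. The rest were Dnajb3, Dnajb7, Dnajb8 and Dnajb13, and Dnajc4, Dnajc5b, Dnajc5g, Dnajc6, Dnajc17 and Dnajc22. Among processed pseudogenes of the family, which carry no symbol in the lists and are not members, 3 had peaks: Hspd1-ps3, Hspa9-ps1 and Dnajc19-ps. Reads of Hspd1, Hspa9 and Dnajc19 may be divided with these copies, which makes their values uncertain.

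Most of the chaperone genes were marked in both conditions. Of the 54, 48 had peaks in both lists, which is 88.9% (77.4 to 95.8%), 1 in the PTC list only, 1.85% (0.047 to 9.89%), and 5 in the control list only, 9.26% (3.08 to 20.3%). Over 10016 listed protein-coding genes the shares were 84.2% in both lists, 6.43% in the PTC list only and 9.37% in the control list only, so the chaperone shares lie near the background. The gene in the PTC list only was Dnajc28, a little-studied J protein. Those in the control list only were Hspa2, an HSP70 of germ cells, Hspb6, a small heat shock protein of muscle also called HSP20, Hspbp1, an exchange factor of HSP70, Dnajc12, a co-chaperone of the aromatic amino acid hydroxylases, and Dnajc27, a J protein fused to a Rab-like GTPase.

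The peaks of these 6 genes varied in strength. Dnajc28 had 1 coding PTC peak of 271 nt at chr16:91617009-91617279, 18.8-fold enriched, at a −log10 FDR of 4.13. Hspa2 had 3 coding control peaks with −log10 FDR of 2.94, 3.28 and 6.93, of which the last was 26.9-fold enriched. Hspbp1 had 2 control peaks with −log10 FDR of 2.18 and 6.33 and fold enrichments of 1.98 and 2.79. The strongest peaks of both genes thus lay above the median of chaperone control peaks, 4.93. The single control peaks of Hspb6, Dnajc12 and Dnajc27 had fold enrichments of 9.72, 3.61 and 3.86 and −log10 FDR of 1.73, 2.23 and 2.54, close to the weakest peak of the control list at 1.37. Only Hspa2 and Hspbp1 of the 6 had a peak past a −log10 FDR of 5. At that threshold in both lists 42 chaperone genes stayed listed, 5 in the PTC list only, 4 in the control list only and 33 in both, beside 9.86%, 10.6% and 79.5% of 9226 listed genes. The 5 were Hspa4l, Hsp90aa1, Dnajc15, Dnajc24 and Dnajc25, and the 4 were Hspa2, Hspa14, Hspbp1 and Dnajb6. Dnajc28 was not among them. At a fold enrichment of at least 4 in both lists 37 chaperone genes stayed listed, 7 in the PTC list only, 11 in the control list only and 19 in both, or 18.9%, 29.7% and 51.4%, beside 16.0%, 24.6% and 59.4% of 9421 listed genes. With the control list cut to its strongest peaks so that both lists had equal length, 6 chaperone genes were in the PTC list only. At that length 2 were in the control list only and 43 in both, and the shares over all listed genes were not computed. The number of chaperone genes marked in 1 list only, and the list that held more of them, thus depended on the threshold and on list length.

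**Figure D1:**
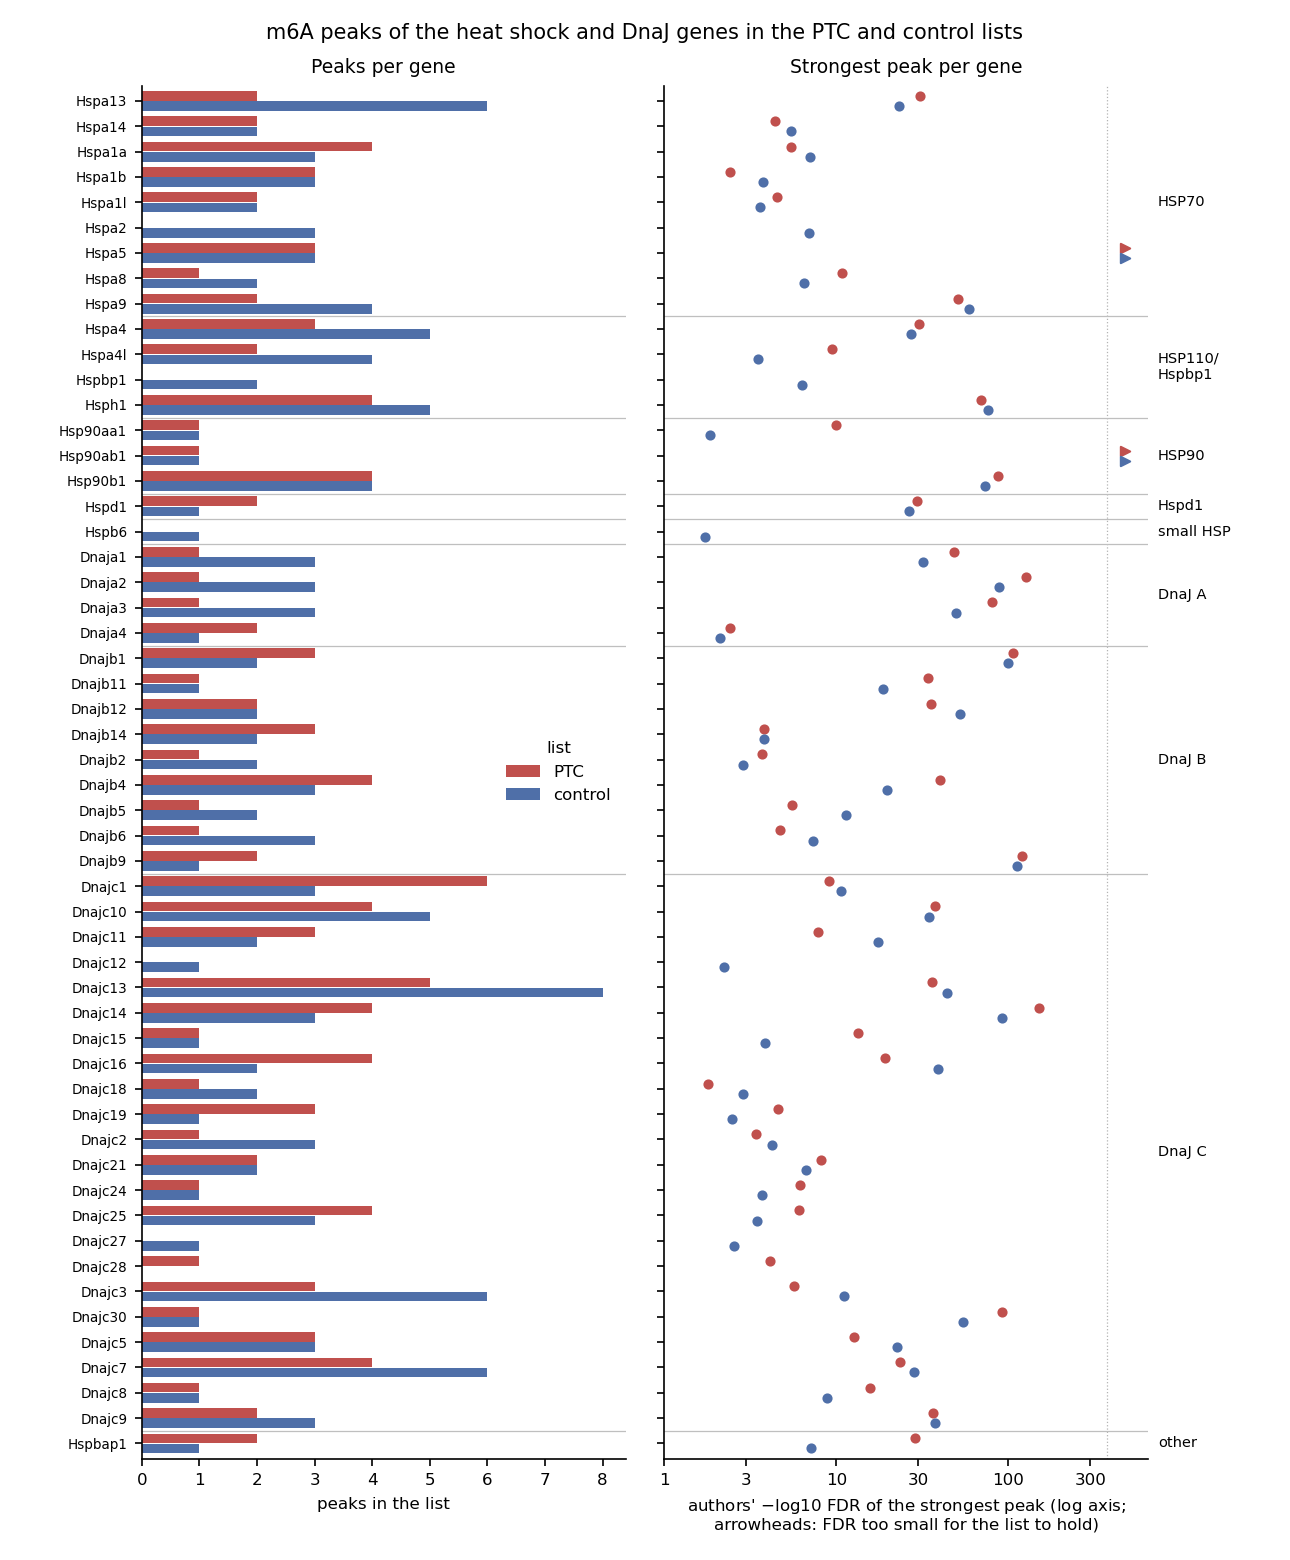
Number of peaks (left) and the authors' −log10 FDR of the strongest peak (right, log axis) for each of the 54 chaperone genes, with the PTC list in red above the control list in blue and gene groups separated by lines. Hspa5 and Hsp90ab1 sit past the dotted line in both lists because their FDR was too small for the list to hold, Dnajc13 has the most peaks with 5 in the PTC list and 8 in the control list, and 6 genes have a bar for 1 list only.

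The number of peaks per gene was 2.35 in the PTC list and 2.62 in the control list among the genes with a peak there, against 2.31 and 2.85 over all protein-coding genes. Of the 48 genes in both lists, 14 had more PTC peaks, 19 more control peaks and 15 equal numbers. Those shares are 29.2%, 39.6% and 31.3%, against 17.0%, 45.7% and 37.3% of 8432 protein-coding genes in both lists. The PTC list holds 23368 peaks in all and the control list 29586. Of the chaperone peaks 62 in the PTC list, 53.9% (44.4 to 63.2%), and 69 in the control list, 49.6% (41.1 to 58.2%), had a −log10 FDR of at least 5, beside 60.4% and 53.8% of all protein-coding peaks. A fold enrichment of at least 4 was reached by 43 in each list, 37.4% (28.5 to 46.9%) and 30.9% (23.4 to 39.3%), beside 45.0% and 44.3%. The PTC interval holds its background, and the control interval lies below its own. These intervals count peaks of the same gene as separate draws, and the difference was not tested. Chaperone genes with more PTC peaks included Dnajc1, an ER membrane J protein that faces the ribosome, with 6 against 3, Dnajc16 with 4 against 2 and Dnajc19, part of the mitochondrial import machinery, with 3 against 1. Those with more control peaks included Hspa13 with 2 PTC peaks against 6, Dnajc13 with 5 against 8 and Dnajc3, an ER co-chaperone also called P58IPK, with 3 against 6. Counts of peaks also move with how the caller splits or joins a marked stretch: 7 PTC peaks overlapped 2 or 3 control peaks, and 9 control peaks overlapped 2 or 3 PTC peaks.

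Peaks of the lists overlapped in chaperone genes about as often as in all protein-coding genes. Of the PTC peaks 88 of 115, or 76.5% (67.7 to 83.9%), shared at least 1 base with a control peak on the same strand, against 79.6% of PTC peaks in all protein-coding genes. Of the control peaks 87 of 139, or 62.6% (54.0 to 70.6%), shared a base with a PTC peak, against 60.2%. The overlap depended on how it was counted: it was 48.8% of PTC peaks and 46.5% of control peaks at a fold enrichment of at least 4 in both lists, and 52.2% and 43.2% where midpoints had to lie within 100 bp. The overlapped peaks had a median −log10 FDR of 8.01 in the PTC list and 11.2 in the control list, and the peaks without a partner had medians of 3.24 and 2.84. By fold enrichment the order was the other way, with medians of 2.985 (PTC) and 2.99 (control) for overlapped peaks and 3.93 and 3.185 for those without a partner. Without a partner, 4 of 27 PTC peaks and 9 of 52 control peaks passed a −log10 FDR of 5. In 30 of the 48 genes every PTC peak was overlapped, and in 17 every peak of both lists was. Apart from the 1-base overlap shares, these values were not computed for all protein-coding genes, so none is read as particular to chaperone genes. In 5 genes no PTC peak met a control peak: Hspa1l, Hspa8, Hsp90aa1, Dnaja4 and Dnajc2, which is 5 of 48 beside 5.22% of all protein-coding genes in both lists.

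Hspa5 encodes BiP, the HSP70 of the ER lumen, and carried one of the strongest marks of the family. It lies on the plus strand of chromosome 2 and had 3 peaks in each list. The 3 PTC peaks had fold enrichments of 1.68, 3.15 and 4.16, with −log10 FDR of 18.1 and 130 for the first pair and a value too small to be held for the third. The control peaks had fold enrichments of 2.62, 3.16 and 3.22, with −log10 FDR of 63.5, 180 and again a value too small to be held. The third peak, chr2:34775011-34776497 in the PTC list and chr2:34775011-34776438 in the control list, covered the last 728 coding bases and ran 387 nt (PTC) or 328 nt (control) beyond them, over the stop codon and the GGACT printed above. Over the gene 89.4% of the bases in a peak of either list were in peaks of both, so the lists marked nearly the same stretch.

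Hspa9, mitochondrial HSP70 or mortalin, had 2 PTC peaks and 4 control peaks. A single PTC peak of 1460 nt, with a −log10 FDR of 51.1, lay over the stretch where the control list had 3 peaks, of which the strongest had 59.1. The stop codon lay in a peak of each list. Hspa13, an HSP70 bound to microsomes that lacks a substrate-binding domain, showed the same kind of split. Its PTC peak of 2668 nt, the widest of the family, at chr16:75755803-75758653, was 11.2-fold enriched at a −log10 FDR of 30.5, and overlapped 3 control peaks with −log10 FDR of 9.22, 8.70 and 23.2. The 2 Hspa13 control peaks that had no PTC partner were in coding sequence, with −log10 FDR of 2.1 at most.

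Hspa8 encodes HSC70, the constitutive cytosolic HSP70, and its marks were few beside those of Hspa5. It had 1 PTC peak of 150 nt at chr9:40804957-40805106, 1.53-fold enriched at a −log10 FDR of 10.8. The 2 control peaks, at chr9:40803344-40803464 and chr9:40804240-40804598, had −log10 FDR of 2.67 and 6.51 and did not touch the PTC peak. The weaker had its midpoint in coding sequence, and the stronger in a noncoding exon or intron. Hspa14, the HSP70 that pairs with Dnajc2 on ribosomes, had 2 peaks in each list, all 4 overlapped, with −log10 FDR between 3.25 and 5.48. Its peaks covered the stop codon in both lists.

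The stress-inducible pair Hspa1a and Hspa1b, neighbours on the minus strand of chromosome 17, had peaks of mostly low −log10 FDR and mostly high fold enrichment. In coding sequence the 2 genes are 99.5% identical over 1926 aligned bases and in the 5′ UTR 98.7%, while the 3′ UTRs are 54.8% identical, so reads outside the 3′ UTR cannot be assigned to 1 of them with confidence and the values of each are uncertain. Hspa1a had 4 PTC peaks with −log10 FDR between 2.16 and 5.44 and 3 control peaks between 3.52 and 6.99. Hspa1b had 3 PTC peaks between 1.67 and 2.42 and 3 control peaks between 2.55 and 3.73. Fold enrichments of the Hspa1a peaks were 4.52 to 7.28 in the PTC list and 8.97 to 28.4 in the control list, all above the medians of chaperone peaks, 3.15 and 3.03. Those of Hspa1b were 1.94 to 3.39 (PTC) and 2.78, 4.67 and 17.2 (control). By −log10 FDR, all but the strongest Hspa1a control peak of the pair lay below the median of chaperone peaks, 5.51 in the PTC list and 4.93 in the control list.

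At the 5′ end of this pair the control list had a peak in both genes, and the PTC list had one in Hspa1b only. The strongest Hspa1a control peak, at chr17:34971916-34972126, covered 211 nt that end on the first 10 coding bases, 28.4-fold enriched with a −log10 FDR of 6.99, and no Hspa1a PTC peak lay there. At the matching end of Hspa1b the PTC list had a peak at chr17:34959000-34959119 over 112 nt of the 5′ UTR, 1.94-fold enriched with a −log10 FDR of 1.67. The control list had one at chr17:34959000-34959178 over 171 nt, 2.78-fold enriched with a −log10 FDR of 2.55. The 5′ UTR of the pair was thus marked in both lists, and whether a read there came from Hspa1a or Hspa1b is uncertain. Past the stop codon, where the copies differ, Hspa1a had a PTC peak of 300 nt at chr17:34969400-34969699 with a −log10 FDR of 3.99, holding 2 GGACT, where the control list had none, and Hspa1b had no peak in either list. Hspa1l, the HSP70 next to them on the plus strand, had 2 coding peaks in each list with −log10 FDR of at most 4.52 and no overlapping pair, and its coding sequence is 83.3% identical to that of Hspa1a.

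HSP110 proteins release ADP from HSP70 and hold unfolded clients. Hsph1 (HSP105) was the most strongly marked, with 4 PTC peaks and 5 control peaks. At the stop codon its PTC peak, chr5:149617140-149618850, was 2.88-fold enriched at a −log10 FDR of 69.5, and the control peak, chr5:149617020-149619094, was 2.95-fold enriched at a −log10 FDR of 76.3. Both peaks held the GGACT across the stop codon. At the other end of the transcript a PTC peak covered 180 nt of the 5′ UTR and 90 coding bases with a −log10 FDR of 4.07, and a control peak covered 262 nt and the same 90 coding bases with 17.9. Hsph1 was thus 1 of 7 chaperone genes with the start codon in peaks of both lists.

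Hspa4 (APG-2), another HSP110, had 3 PTC peaks and 5 control peaks. Its strongest were over the stop codon, with −log10 FDR of 30.3 in the PTC list and 27.3 in the control list, and a second overlapping pair lay in the 3′ UTR with 10.5 and 24.0. Hspa4l (APG-1) had 2 PTC peaks and 4 control peaks, and the lists met only at the stop codon. There the PTC peak, chr3:40789220-40789519, was 3.73-fold enriched at a −log10 FDR of 9.42, and the control peak, chr3:40789250-40789429, was 2.51-fold enriched at a −log10 FDR of 2.78. The same GGACT across the stop codon lay in both. Hspbap1, which the name rule takes in although it encodes a JmjC-domain protein that binds a small heat shock protein, had 2 PTC peaks and 1 control peak, with an overlapping pair in coding sequence at −log10 FDR of 28.6 (PTC) and 7.09 (control).

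The 3 HSP90 genes that the name rule takes in differed in how far the peaks of the lists coincided. Hsp90ab1, the constitutive cytosolic HSP90, had 1 peak of 6 exon blocks and 1979 nt in each list, of which 1767 nt were coding sequence of the principal transcript and the rest lay outside its exons, with a fold enrichment of 2.44 in the PTC list and 2.76 in the control list and an FDR too small to be held in both. The peaks, chr17:45568269-45571508 (PTC) and chr17:45568299-45571538 (control), shared 97.0% of the bases that either covered. Hsp90b1, which encodes the ER protein GRP94, had 4 peaks in each list that shared 84.3% of their bases, the strongest with −log10 FDR of 86.7 in the PTC list and 73.4 in the control list. Its stop codon lay in a peak of both lists.

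In Hsp90aa1, the inducible cytosolic HSP90, no base was in peaks of both lists. It had 1 PTC peak of 388 nt at chr12:110694039-110694653, 2.61-fold enriched at a −log10 FDR of 10.0. The only control peak was a coding one of 120 nt at chr12:110692409-110692684, 2.62-fold enriched at a −log10 FDR of 1.85, in another part of the transcript. The coding sequences of Hsp90aa1 and Hsp90ab1 are 76.4% identical. Hspd1, mitochondrial HSP60, had 2 PTC peaks, with −log10 FDR of 2.35 and 29.3, which both overlapped the single control peak, with 26.3. That control peak and the stronger PTC peak ran over the stop codon.

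Class A and B J proteins are the classical partners of cytosolic HSP70. The 4 class A genes all had peaks in both lists. Dnaja2 had 1 PTC peak of 893 nt over the stop codon, 3.27-fold enriched at a −log10 FDR of 126, inside a control peak of 1220 nt that was 3.07-fold enriched at a −log10 FDR of 87.9. The control list added a 5′ UTR peak that held the start codon, with a −log10 FDR of 2.00, and a 3′ UTR peak with 4.49. Dnaja3, the mitochondrial J protein Tid1, had its strong peaks just past the stop codon at chr16:4706590-4706949 in the PTC list and chr16:4706590-4707008 in the control list, with fold enrichments of 5.25 and 3.23 and −log10 FDR of 80.4 and 49.5. Dnaja1 had 1 PTC peak, with a −log10 FDR of 48.6, and 3 control peaks, of which the one over the same stop codon had 31.8. In these 3 genes the control list added 2 further peaks each, of −log10 FDR 6.03 at most, that the PTC list did not have. Dnaja4 had only peaks of low rank, with −log10 FDR of 1.91 and 2.42 in the PTC list and 2.12 in the control list, and none touched.

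All 9 listed class B genes had peaks in both lists, and in each at least 1 pair overlapped. Dnajb1, the main HSP40 of the cytosol and itself a heat shock gene, had 3 PTC peaks and 2 control peaks that shared 89.5% of their bases. Its largest PTC peak, chr8:83608742-83611186, was 5.65-fold enriched at a −log10 FDR of 106, and the control peak over it, chr8:83608742-83611905, was 5.26-fold enriched at a −log10 FDR of 99.0. A further peak over the start codon had −log10 FDR of 26.6 in the PTC list and 77.6 in the control list. Dnajb9, the ER protein ERdj4, had 2 PTC peaks with −log10 FDR of 18.3 and 120 and fold enrichments of 3.46 and 8.12. Both lay within 1 control peak of 1859 nt with a −log10 FDR of 112 and a fold enrichment of 12.2. In both genes the marked stretch thus ran across the stop codon in both lists, divided differently.

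Dnajb11, the ER protein ERdj3 that works with BiP, had 1 peak in each list over the stop codon, with −log10 FDR of 33.9 (PTC) and 18.8 (control). Dnajb12, an ER membrane J protein, had 2 overlapping pairs, with −log10 FDR of 7.87 and 35.5 in the PTC list and 4.93 and 52.6 in the control list. Dnajb4 differed in that its strongest peaks lay at the start of the transcript, over 182 nt of the 5′ UTR and 685 coding bases in the PTC list and 212 nt and the same 685 bases in the control list, with −log10 FDR of 40.1 and 19.7. It held the start codon in both lists, and the stop codon in the PTC list only, in a peak with a −log10 FDR of 7.41. Dnajb5 had an overlapping pair over the stop codon with 5.51 (PTC) and 11.4 (control). The remaining class B genes, Dnajb2, Dnajb6 and Dnajb14, had 1 to 3 peaks per list, with −log10 FDR of at most 4.72 in the PTC list and 7.30 in the control list.

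Class C holds J proteins of many compartments that share little beyond the J domain. Of 28 annotated class C genes 22 were listed, 19 in both lists, with 54 PTC and 58 control peaks. Dnajc14, which helps membrane receptors leave the ER, had the highest −log10 FDR of all J proteins in the PTC list. Its peak over the start codon and most of the coding sequence, chr10:128805987-128810042 in the PTC list and chr10:128806169-128810042 in the control list, had fold enrichments of 8.30 and 9.40 and −log10 FDR of 151 and 91.4, and held 5 GGACT in each list. Dnajc30, an intronless gene for a mitochondrial protein linked to ATP synthase, had a single peak in each list across the stop codon, 15.8-fold enriched at a −log10 FDR of 91.7 at chr5:135064765-135065417 (PTC) and 7.97-fold enriched at a −log10 FDR of 54.4 at chr5:135064676-135065506 (control). The PTC peak lay wholly inside the control peak. Because input reads from an intronless gene cannot be told from genomic DNA by splicing, its fold enrichment has no such check. The same holds for Hspa1a, Hspa1b and Hspa2, whose principal transcripts also have 1 exon.

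Dnajc9, a J protein that also binds histones, shared 90.3% of its marked bases between the lists, with −log10 FDR of 11.2 and 36.5 in the PTC list and 27.1, 34.7 and 37.5 in the control list. Dnajc10, the ER reductase ERdj5, had 4 PTC peaks with −log10 FDR between 2.34 and 37.7 and 5 control peaks between 2.13 and 34.4, and its start codon was in a peak of both lists. Dnajc16, an ER J protein, was the gene of this class with GGACT across its stop codon, and the peak there was 7.03-fold enriched at a −log10 FDR of 19.2 in the PTC list and 17.1-fold enriched at a −log10 FDR of 39.1 in the control list. Dnajc13 (RME-8), an endosome protein with the longest coding sequence of the named genes, had 5 PTC and 8 control peaks. All 5 PTC peaks were overlapped, including a 5′ UTR peak at the same coordinates in both lists, chr9:104262780-104262930, with −log10 FDR of 3.10 (PTC) and 3.17 (control). Its 3 control peaks without a partner were coding and had −log10 FDR of at most 5.81.

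Dnajc1 had 6 PTC peaks with −log10 FDR between 3.86 and 9.01, and 3 control peaks between 3.37 and 10.7 that were each overlapped. The 3 PTC peaks without a partner had −log10 FDR of 3.86, 4.12 and 4.53. Dnajc7, a cytosolic protein with tetratricopeptide repeats that contacts HSP70 and HSP90, had 4 PTC peaks, all overlapped, with at most 23.4, and 6 control peaks with at most 28.2. Dnajc3 had 3 PTC peaks of at most 5.67 and 6 control peaks of at most 11.1, and the strongest control peak, chr14:118979396-118979665 in the 3′ UTR, had no PTC partner. Dnajc2 (MPP11 or zuotin), the ribosome-bound partner of Hspa14, had 1 PTC peak near the stop codon with 3.39 and 3 control peaks of at most 4.22 elsewhere.

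Dnajc5, the cysteine string protein of vesicles, had long stretches of its 3′ UTR marked in both lists, by PTC peaks of 121 to 2008 nt and control peaks of 301 to 1709 nt, with −log10 FDR of at most 12.7 (PTC) and 22.6 (control). Dnajc8, a J protein of the spliceosome, had 1 overlapping pair with 15.6 (PTC) and 8.78 (control), and Dnajc15, a mitochondrial import protein, had one across its stop codon with 13.3 and 3.87. In Dnajc11, a mitochondrial protein of cristae junctions, 3 PTC peaks of at most 7.78 lay under 1 control peak of 1170 nt with 17.5. Dnajc18, Dnajc19, Dnajc21, Dnajc24 and Dnajc25 had −log10 FDR of at most 8.15 in the PTC list and 6.68 in the control list.

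Peaks were most frequent at and just past the stop codon in the chaperone transcripts, as in all listed protein-coding genes. The stop codon lay in a PTC peak in 31 of 54 genes, or 57.4% (43.2 to 70.8%), and in a control peak in 33, or 61.1% (46.9 to 74.1%), beside 51.7% and 51.9% of 9992 listed protein-coding genes. In 27 genes (36.1 to 63.9% by the exact interval) it lay in peaks of both lists, beside 42.8%. It was in PTC peaks only in 4 genes, Dnajb4, Dnajc2, Dnajc8 and Dnajc21, or 7.41% beside 8.93%. It was in control peaks only in 6, Hspa1a, Hspa1l, Dnajb14, Dnajc5, Dnajc10 and Dnajc11, or 11.1% beside 9.12%. The intervals of all 5 chaperone shares hold the background share. At 100 nt past it 32 of the 52 genes with transcript there had a peak, 61.5% in each list, beside 55.8% (PTC) and 55.5% (control) of the listed genes.

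Shares of bases give the same picture. Within 200 nt of the stop codon 53.0% of the bases of the 54 principal transcripts were in PTC peaks and 53.8% in control peaks, against 24.1% and 27.5% over the whole transcripts. For all listed protein-coding genes the shares near the stop codon were 47.4% (PTC) and 48.3% (control). Of 37 GGACT within that distance in the chaperone transcripts, 24 were in PTC peaks, 23 in control peaks and 20 in peaks of both lists. These shares, 64.9%, 62.2% and 54.1%, lie near those over all listed protein-coding genes, 58.9%, 58.1% and 50.3%. Over whole transcripts 58 of 195 GGACT, 29.7%, were in PTC peaks and 60, 30.8%, in control peaks, beside 29.8% and 34.0%.

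**Figure D2:**
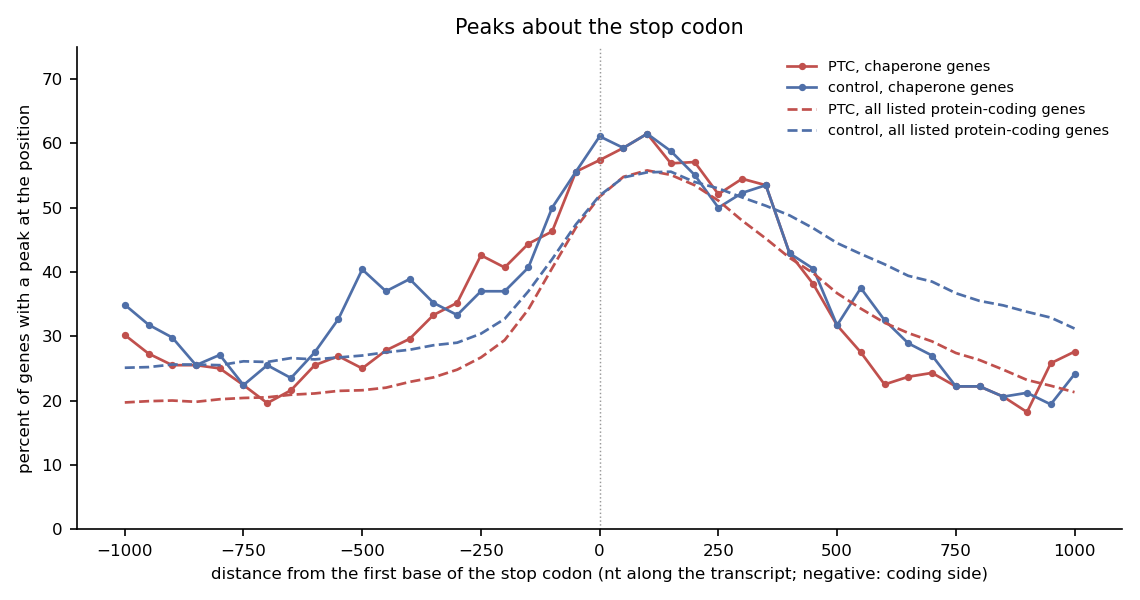
Percent of genes with a peak at each distance from the first base of the stop codon (nt along the principal transcript, negative on the coding side), for the 54 chaperone genes (solid lines) and all listed protein-coding genes (dashed lines), PTC in red and control in blue. The chaperone lines stand at 57.4% (PTC) and 61.1% (control) at distance 0 and are highest 100 nt past it, at 61.5% in each list, and fall to 22.2% in both lists 800 nt downstream, where 36 of the genes still have transcript.

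At the other end the start codon lay in a PTC peak in 8 genes, 14.8% (6.62 to 27.1%), and in a control peak in 10, 18.5% (9.25 to 31.4%), beside 17.2% and 21.7% of listed protein-coding genes. The 7 genes with it in peaks of both lists, 13.0% beside 13.3%, were Hspa1b, Hsph1, Dnajb1, Dnajb4, Dnajc9, Dnajc10 and Dnajc14. It was in PTC peaks only in Hspa4l, 1 gene or 1.85% beside 3.9%, and in control peaks only in Hspa1a, Hspbp1 and Dnaja2, 3 genes or 5.56% beside 8.44%. Reads at the start codons of Hspa1a and Hspa1b cannot be assigned to 1 of them with confidence. In the first 200 nt of the transcripts 9.58% of bases were in PTC peaks and 17.7% in control peaks, against 12.7% and 16.9% over all listed protein-coding genes. Of the 16 GGACT in these first 200 nt, 2 lay in PTC peaks and the same number in control peaks, 12.5% each, beside 370 (PTC) and 472 (control) of 2472 such GGACT over all listed protein-coding genes.

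By midpoint, 53 of 115 PTC peaks, 46.1% (36.8 to 55.6%), lay in the 3′ UTR, 57, 49.6% (40.1 to 59.0%), in coding sequence and 3, 2.61% (0.541 to 7.43%), in the 5′ UTR. The background shares of the PTC list are 49.7%, 40.9% and 5.78%. Of 139 control peaks 58, 41.7% (33.4 to 50.4%), lay in the 3′ UTR, 64, 46.0% (37.6 to 54.7%), in coding sequence and 10, 7.19% (3.50 to 12.8%), in the 5′ UTR, where the control list as a whole has 46.0%, 42.1% and 5.92%. The remaining 2 PTC and 7 control midpoints lay in noncoding exons or introns, 1.74% and 5.04% beside 3.66% and 5.98%. Midpoints within 200 nt of a stop codon made up 26.1% of the PTC peaks (18.3 to 35.1%) and 24.5% of the control peaks (17.6 to 32.5%), against 22.3% and 17.0% of all protein-coding peaks, so the control share is the one whose interval does not hold its background. Within 100 nt, and at stricter thresholds that leave fewer peaks, the interval of the control share did hold its background. The share itself stayed above the background in each of these settings. The control share was 11.5% (6.72 to 18.02%) beside 9.08% within 100 nt, 30.4% (19.9 to 42.7%) beside 20.6% at a −log10 FDR of at least 5, and 30.2% (17.2 to 46.1%) beside 17.8% at a fold enrichment of at least 4. At that FDR it was the PTC share, 38.7% (26.6 to 51.9%), whose interval did not hold its background of 26.0%. The coding share of PTC midpoints at that FDR was 58.1% (44.85 to 70.49%), and its interval did not hold its background of 43.2%. Of the HSP70 peaks 14 of 19 in the PTC list and 21 of 28 in the control list had a coding midpoint. Of the class B peaks 12 of 18 in the PTC list and 13 of 18 in the control list had a 3′ UTR midpoint. The transcripts differ in the same way, since most bases of the listed HSP70 transcripts are coding and most of the class B ones are 3′ UTR. The counts are not adjusted for this, so no difference in placement is read from them.

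GGACT was found within 50 nt of the midpoint of 15 of 115 PTC peaks, 13.0% (7.49 to 20.6%), near the 13.3% of all protein-coding PTC peaks. In the control list it was found in 7 of 138 windows, 5.07% (2.06 to 10.2%), below the 11.7% of all protein-coding control peaks. Within 100 nt of the midpoint the shares were 22.6% and 18.8%, beside 24.3% and 22.0% over all protein-coding peaks, and both intervals held the background. In the narrow window the control share was 5.88% (1.63 to 14.4%) beside 12.6% at a −log10 FDR of at least 5 and 9.52% (2.66 to 22.6%) beside 12.8% at a fold enrichment of at least 4, with intervals that held the background too. DRACH, a looser motif that includes GGACT, was found in 90.4% of PTC windows and 84.1% of control windows, beside 88.6% and 87.0%.

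**Figure D3:**
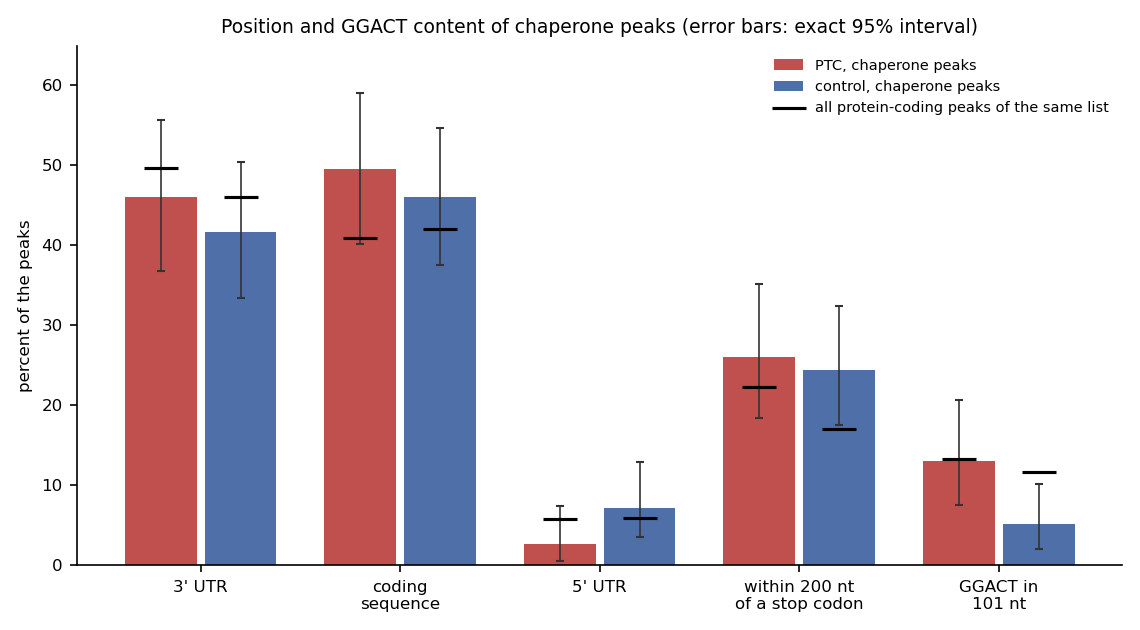
Percent of chaperone peaks with the midpoint in each transcript region, within 200 nt of a stop codon, or with GGACT within 50 nt of the midpoint, for 115 PTC peaks (red, left of each pair) and 139 control peaks (blue, 138 for GGACT), with exact 95% intervals for counting error only, and black dashes for all protein-coding peaks of the same list. The GGACT share of control peaks, 5.07%, and their share near a stop codon, 24.5%, are the bars whose interval does not hold the dash.

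Genes that work with these chaperones were looked up by list presence. Of 81 genes on 6 lists 75 had peaks, 69 in both lists, 2 in the PTC list only and 4 in the control list only. Of all annotated protein-coding genes 45.6% were listed, and of the listed ones 84.2% were in both lists, 6.43% in the PTC list only and 9.37% in the control list only. The counts for each list of partner genes stand beside the same shares, which are not matched for expression. In the PTC list only were Pih1d1, an HSP90 adaptor, with 1 peak at a −log10 FDR of 2.23, and Pfdn2, a prefoldin subunit, with 1 peak at 9.61. In the control list only were Bag6, which guards membrane proteins before insertion, with 3 peaks of at most 15.8, Sgtb with 1 peak at 1.55, the prefoldin subunit Pfdn5 with 1 peak at 3.27 and the ER protein Creld2 with 1 peak at 5.60. Of 7 genes for heat shock factors or proteins that bind them 3 were listed, each in both lists. Hsf1, the main regulator of heat shock genes, had −log10 FDR of 13.6 (PTC) and 8.99 (control), and Hsf2 had 21.0 and 8.11. Hsbp1, which encodes a binding protein and not a factor, had 22.4 and 11.9.

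All 16 HSP70 co-chaperones outside the name rule were listed, 14 in both lists, with the highest −log10 FDR for Bag5 at 78.3 (PTC) and 68.1 (control) and Ttc1 at 59.1 and 48.3. All 20 genes grouped as HSP90 co-chaperones were listed, 19 in both. The group takes in Trap1, which is itself a mitochondrial HSP90. The highest −log10 FDR were those of Ahsa2 at 106 and 69.3 and Ahsa1, an activator of the HSP90 ATPase, at 59.4 and 95.3. Of 14 chaperonin and prefoldin genes 12 were in both lists, led by Tcp1 at 53.6 and 49.1 and Cct2 at 16.5 and 43.5. Of 17 ER chaperone and unfolded protein response genes 15 were in both. The strongest there were Xbp1, the transcription factor of the response, at 318 (PTC) and 235 (control), and Pdia4, a disulfide isomerase, at 226 and 186. Of 7 mitochondrial genes 6 were listed, all in both lists, led by the proteases Yme1l1 at 73.7 and 37.3 and Lonp1 at 15.7 and 40.2.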

How the data were processed

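Peaks were deposited by the authors as 1 list per condition, with exon blocks, gene identifier, strand, p-value, fold and scores per peak. The fold that the authors deposited is a linear ratio, and the deposited scores hold log10 of the p-value and of the FDR, as the p-value column shows to within 0.02 on that scale. BWA 0.7.12, MACS2 2.1.0 and build GRCm39 are named, with no role, per the submitters' processing notes. The peak caller, its threshold and any pooling of samples were not given in the sources used here. The authors' deposited table with a summary counts 15855 peaks for PTC and 19420 for control, fewer than the rows of the lists. Read depth per sample is unknown, and intervals cover counting error only. The labels do not say whether samples came from separate animals or cultures.

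Coordinates were read as GRCm38: 99.8% of peaks lay in the gene with the same identifier in GENCODE M21, and 19425 of 19445 exon junctions ended on its exon ends. Positions are counted from 1. Overlap was at least 1 bp on the same strand (bedtools 2.31.1). A region is that of the midpoint of the joined exon blocks over all transcripts of the gene, in the order coding sequence, 3′ UTR, 5′ UTR, noncoding, with the stop codon counted with the 3′ UTR. Start and stop codons are those of 1 principal transcript per gene. GGACT and DRACH were searched on the transcript strand, within 50 nt of the midpoint. Identity was computed from global alignments. The functions were tested on simulated data.

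The members, gene lists and comparisons were chosen with earlier results of these data known. Text names all HSP70, HSP110, HSP90, HSP60 and small heat shock genes, and of DnaJ genes the 6 per class with the highest −log10 FDR, the 5 with the most peaks, those in 1 list only and those in both lists with no overlapping pair. Other DnaJ genes are given for completeness. Of the lists' partner genes, those in 1 list only and the 2 highest of each list are named, with Hsf1 added after its values were seen. A count test planned for counts per sample was not run, since the tables hold none. Alternatives were stricter thresholds, equal list lengths, other overlaps, windows and distances, and fewer members.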

Additional observations from a re-analysis of the deposited data

How the results depend on the processing

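Other settings were tried for list membership, peak numbers, overlap, midpoint regions, near-stop midpoints and GGACT windows, which are 17 counts and shares. The shares of start and stop codons, DRACH windows, bases and sites in peaks, motifs across the stop codon, peaks per gene and partner genes were not recomputed. There were 90 alternative values, of which 60 stayed within the interval of the reported share or within 1.5 times the reported count. Leaving out Hspbap1 and Hspbp1, or Dnajc13 as the gene with the most peaks, moved none of these outside. The list in which a gene was found depended on the threshold: genes in the PTC list only were 1 as reported, 5 at a −log10 FDR of at least 5, 7 at a fold enrichment of at least 4 and 6 at equal list length, where the longer control list was reduced to its strongest peaks. Genes in the control list only were 5 as reported, 11 at that fold and 2 at equal length, and genes in both lists 48 as reported and 19 at that fold. Shares over all listed genes at equal length were not computed. Member peaks numbered 62 (PTC) and 69 (control) at the FDR threshold and 43 and 43 at the fold threshold. The overlapped share was 75.4% of control peaks at the FDR threshold, 48.8% (PTC) and 46.5% (control) at the fold threshold, 67.0% and 76.8% at equal length, 56.5% and 46.8% with 50% of each peak shared, and 52.2% and 43.2% with midpoints within 100 bp. These overlap shares were not computed over all protein-coding genes. Midpoints in the 5′ UTR of PTC peaks were 0% under both thresholds (0 of 62 and 0 of 43). All protein-coding PTC peaks had 5.19% and 5.66% there. At the fold threshold 3′ UTR midpoints were 55.8% of PTC peaks, beside 47.1%, and coding midpoints 37.2% of control peaks, beside 40.3%. The exact intervals of these 4 chaperone shares held the background. Near-stop midpoints were 38.7% of PTC peaks at the FDR threshold, beside 26.0% of all protein-coding PTC peaks. Within 100 nt they were 15.7% (PTC) and 11.5% (control), beside 11.8% and 9.08%. GGACT was in 22.6% (PTC) and 18.8% (control) of windows of 100 nt to each side, beside 24.3% and 22.0%. It was in 36.5% and 30.9% of whole peaks, beside 38.5% and 35.0% of all protein-coding peaks. Stricter thresholds and overlaps leave fewer peaks and wider windows hold more bases by construction, and other causes were not tested. No paired analysis was possible because the lists hold no values per sample and the sample numbers are not shared between groups. For the same reason no replicate could be left out.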
